A study of Mus musculus with 2 samples.

Results

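The genes described here are the Rab members of the mouse genome as measured in a spleen preparation enriched for natural killer (NK) cells. They are all genes whose symbol is Rab followed by a digit, apart from Rab27a, Rab27b and symbols marked as pseudogenes (-ps). Symbols that contain fip, if or gap were also left out, such as the effector Rab11fip1 and the GTPase-activating protein Rab3gap1. The rule gave 61 of the 32285 genes in the count matrix, and 12 other Rab symbols with a digit were left out by it. Of the 61 members, 57 encode Rab GTPases. The other 4 are Rab3ip and Rab3il1, which encode exchange factors for Rab proteins, and Rab10os and Rab26os, which are transcripts from the strand opposite to Rab10 and Rab26.

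Rab proteins are small GTPases of the Ras superfamily that sit on a membrane when bound to GTP and are taken off it when bound to GDP. Exchange factors switch them on, GTPase-activating proteins switch them off, and in the active form they recruit effectors such as tethers and motor adaptors, so that each Rab marks its own compartments along the secretory, endosomal and lysosomal routes. In NK cells this traffic carries lytic granules to the contact with a target cell, in dendritic cells it serves the uptake and presentation of antigen, and in platelets it builds and empties storage granules.

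All animals in the series were wild-type mice, and no treatment or age is given in the labels. NK cells were taken from spleen by magnetic removal of T cells, B cells, dendritic cells, granulocytes, macrophages and erythroid cells, so the other cell classes below are cells that this removal left behind. The labels list 2 samples, of which 1 was analysed here: a single 10x Genomics 3′ library in which cells of different mice carried lipid tags. The series is about Kir6.1, a subunit of an ATP-sensitive potassium channel, in NK cell development; no channel mutant enters the comparisons here, which set cell classes of 1 library against each other.

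The library held 11696 barcodes with 500 to 6000 genes, at most 10% mitochondrial UMIs (unique molecular identifiers, each standing for 1 captured transcript) and exactly 1 tag. Tags 1, 2 and 3 held 3590, 4213 and 3893 of them, with 18485480, 23091461 and 22465648 UMIs. Each tag served as 1 replicate of every class (n = 3). The labels do not say which mouse or mice a tag marks, so the p-values measure only the spread between tags, which may be technical. Clusters made without the Rab genes and their regulators were named from marker genes. They gave 722 ILC1-like (innate lymphoid cells of group 1), 154 T cell-like, 711 B cell-like, 59 plasma cell-like, 556 conventional dendritic cell-like (dendritic-like below), 87 platelet or megakaryocyte-like (platelet-like below) and 8778 NK-like barcodes. The 10 NK markers summed to 6508 CPM (counts scaled to 1000000 UMIs) in ILC1-like, 1794 in T cell-like, 1898 in B cell-like, 1477 in plasma cell-like, 1198 in dendritic-like and 10078 in platelet-like barcodes, against 18028 in NK-like cells. Doublets of 2 cells with the same tag could not be removed (1791 were expected, 15.3% of the barcodes analysed), and the part of such mixed barcodes in the results below was not tested. Because the classes rest on the remaining genes of these very cells, the tests below describe how the Rab genes differ between classes that already differ in many genes.

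The promoters of 4 members are shown first. They were chosen among the members with an entry in the promoter table for their contrasts between dendritic-like and NK-like cells: Rab32, Rab39 and Rab43 were higher in dendritic-like cells, and Rab19 was lower. Rab7b, Rab30 and Rab38, which differed by larger folds in that contrast, have no entry and are named only. Rab4a, which stood out in ILC1-like cells, has no entry either. Each sequence printed is the RefSeq promoter of build GRCm38.p6, read 5′ to 3′ along the gene's own strand. It runs from 250 bases before to 50 bases after the transcription start. Capitals mark letters of the ETS core GAGGAAG or the T-box core GGTGTGA on either strand; Runx cores (TGTGGTT) were searched the same way and none is in these 4. The windows are chr10:10558158-10558457 (minus strand) for Rab32, chr9:53706183-53706482 (minus) for Rab39, chr6:87812115-87812414 (minus) for Rab43 and chr6:39381103-39381402 (plus) for Rab19.
Rab32: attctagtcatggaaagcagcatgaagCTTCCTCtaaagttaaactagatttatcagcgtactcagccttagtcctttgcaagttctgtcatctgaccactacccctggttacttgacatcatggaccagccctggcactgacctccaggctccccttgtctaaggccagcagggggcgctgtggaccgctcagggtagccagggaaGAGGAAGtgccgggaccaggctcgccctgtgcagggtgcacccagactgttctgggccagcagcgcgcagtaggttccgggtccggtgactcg
Rab39: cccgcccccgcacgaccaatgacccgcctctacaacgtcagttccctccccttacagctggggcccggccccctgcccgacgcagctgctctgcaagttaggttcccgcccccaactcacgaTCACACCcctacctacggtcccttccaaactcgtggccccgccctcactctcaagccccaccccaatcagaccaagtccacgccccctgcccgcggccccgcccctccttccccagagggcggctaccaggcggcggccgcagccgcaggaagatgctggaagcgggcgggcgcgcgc
Rab43: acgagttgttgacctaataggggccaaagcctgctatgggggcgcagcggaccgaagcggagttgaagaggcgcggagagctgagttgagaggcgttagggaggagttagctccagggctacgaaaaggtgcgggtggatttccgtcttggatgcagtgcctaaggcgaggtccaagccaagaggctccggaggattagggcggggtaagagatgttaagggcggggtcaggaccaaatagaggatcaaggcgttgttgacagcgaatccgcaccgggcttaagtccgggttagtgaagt
Rab19: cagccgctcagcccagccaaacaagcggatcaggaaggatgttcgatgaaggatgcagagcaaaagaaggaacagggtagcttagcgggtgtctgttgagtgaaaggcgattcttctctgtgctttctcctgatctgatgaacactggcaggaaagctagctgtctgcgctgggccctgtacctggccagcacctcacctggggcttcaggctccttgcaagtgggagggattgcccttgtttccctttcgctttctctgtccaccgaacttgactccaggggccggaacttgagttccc
Rab32 held 2 ETS cores, starting at bases 28 and 208 of its window, and no GC box (GGGCGGG). Rab39 held 1 T-box core, at base 123, and 5 GC boxes, and Rab43 held 2 GC boxes. Rab19 held none of the 4 motifs. Among the 51 members with a promoter in the table, 9 held an ETS core, 3 a T-box core, 2 a Runx core and 27 a GC box. Over all 27025 promoters the shares were 13.5%, 3.96%, 5.37% and 25.8% in the same order. Motifs may overlap, and a match is a description of letters only.

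In NK-like cells the Rab GTPases with most UMIs were those of the Golgi, of exocytosis and of recycling. Rab2a, which acts between the endoplasmic reticulum and the Golgi, stood first with 408 CPM (407, 405 and 413 in tags 1, 2 and 3). Rab8b, which drives vesicles to the plasma membrane, followed with 221 CPM, Rab10, of the same branch, with 216, Rab8a with 174 and Rab14, a Rab of the Golgi and recycling endosomes, with 157. Levels of single transcripts are given without a length correction, because a 3′ UMI counts a transcript end whatever its length. The 57 GTPases summed to 2742 ± 60.2 CPM in NK-like cells (SD, n = 3 tags), and 32 of them reached 10 CPM.

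Grouped by textbook role, the 16 members of the endoplasmic reticulum and Golgi summed to 893 ± 18.9 CPM in NK-like cells and the 12 of secretion and exocytosis to 671 ± 22.2 CPM (SD, n = 3). Early endosome and uptake, with the 3 Rab5 genes as its core, summed to 446 ± 18.02 CPM, and recycling to 449 ± 5.62 CPM. The late endosome and lysosome group, led by Rab7, summed to 170 ± 6.56 CPM, and the Rabs of lysosome-related organelles (Rab29, Rab32, Rab38) to 17.7 ± 1.05 CPM. At the low end, Rab9b, Rab15 and Rab42 had no UMI in NK-like cells, which allows up to 0.0742 CPM at 3 UMIs, and Rab25, Rab3b, Rab3c and Rab40b had 2 UMIs each. That limit is 4.90 CPM in plasma cell-like and 9.56 CPM in platelet-like barcodes, so a low Rab gene that is missing there was not detectable rather than absent; the limits cover counting error only.

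**Figure D1:**
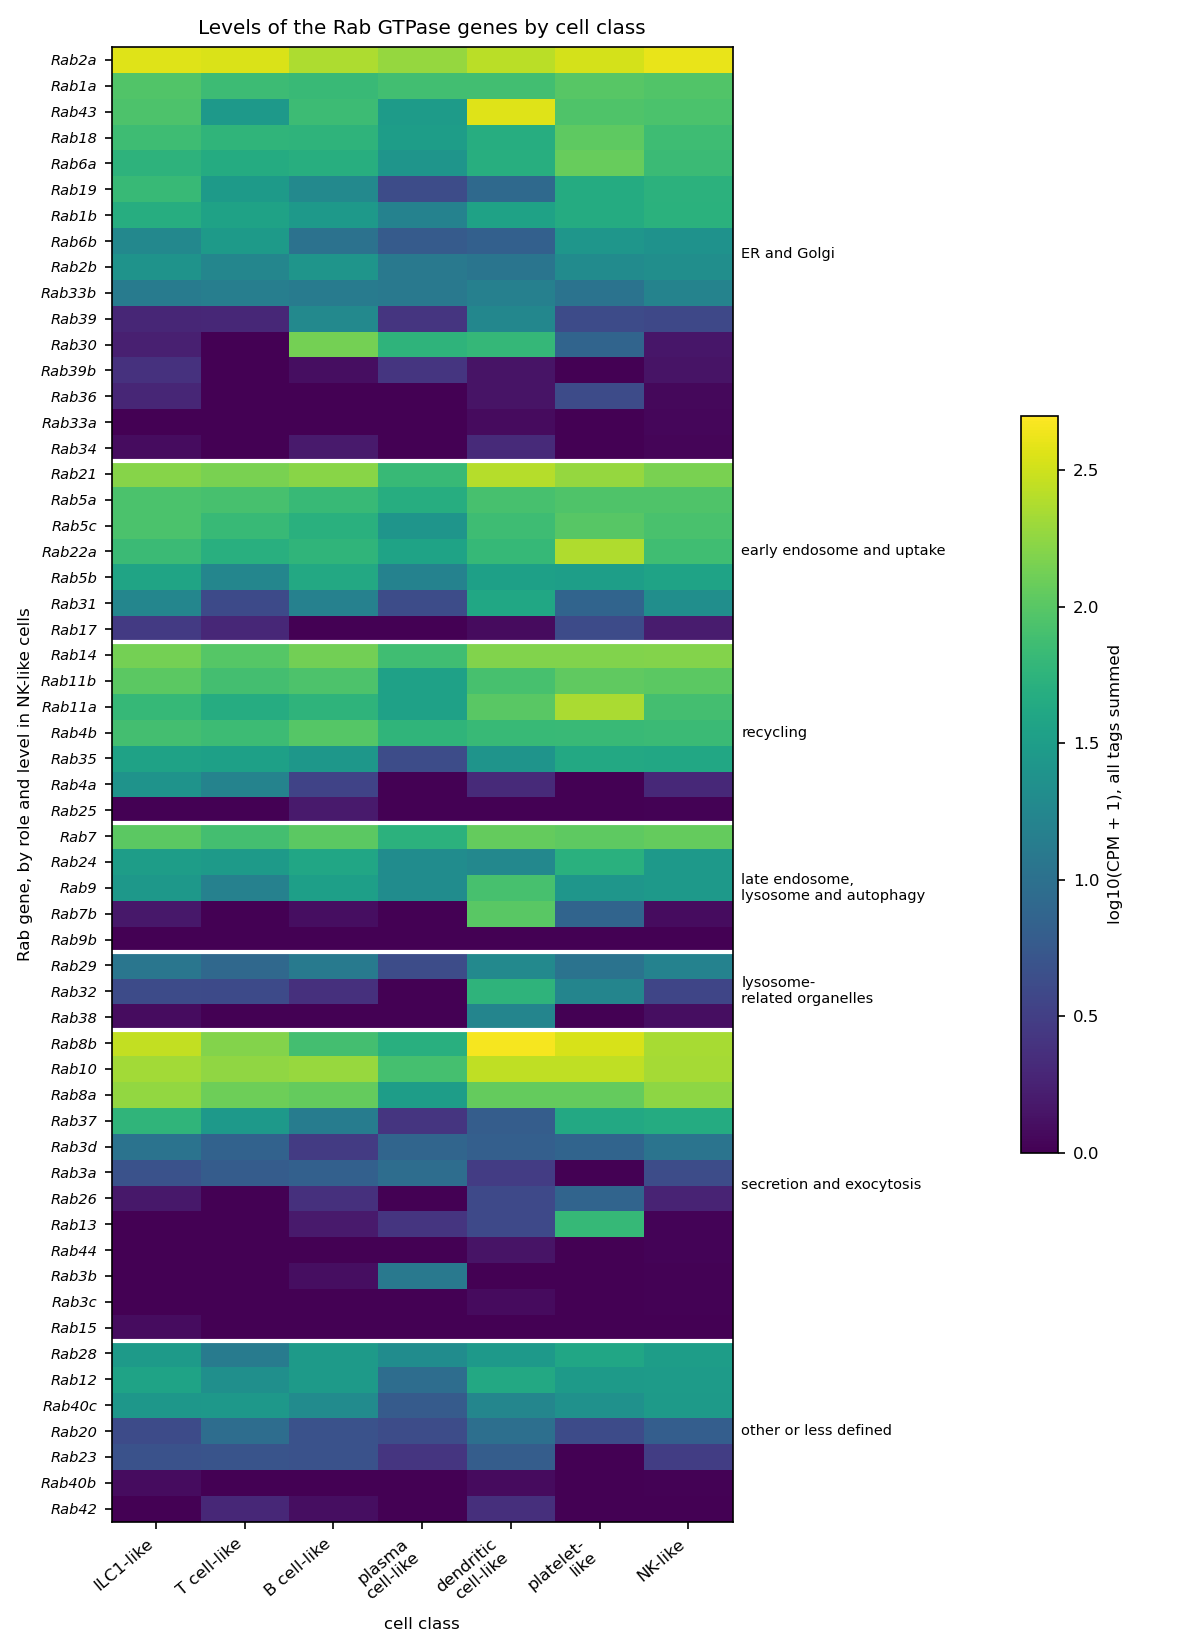
Levels of the Rab members by cell class. The colour gives log10(CPM + 1) of the UMIs summed over the 3 tags, rows are members ordered by role, and columns are the classes with NK-like cells last. Rab7b, Rab38 and Rab32 are brightest in the dendritic-like column, Rab30 in the B cell-like, plasma cell-like and dendritic-like columns, and Rab4a in the ILC1-like column.

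The summed level of the 57 GTPases was 2740 ± 64.2 CPM in ILC1-like, 2163 ± 251 in T cell-like, 2192 ± 87.3 in B cell-like, 1124 ± 111 in plasma cell-like, 3296 ± 190 in dendritic-like and 3183 ± 302 CPM in platelet-like barcodes, against 2742 ± 60.2 CPM in NK-like cells (SD, n = 3). In plasma cell-like barcodes immunoglobulin genes took 20.5% of all UMIs (14.0 to 34.6% over the tags), against 0.0148% in NK-like cells. Such a share lowers the CPM of every other gene there, and its part in the lower Rab sum was not tested. Among the GTPases with at least 20 UMIs in the highest of these 7 classes, 14 had their highest CPM in dendritic-like, 9 in platelet-like, 5 in B cell-like, 4 in ILC1-like, 1 in T cell-like and 6 in NK-like barcodes. The same tally over all genes was not made, so these counts cannot be read as a trait of the Rab genes. A limit of 20 UMIs is a higher CPM in platelet-like barcodes (313650 UMIs) than in NK-like cells (40422210 UMIs). Some of these members were higher still in classes outside the 7, given at the end.

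NK cells mature from a stage with CD27 on the surface to one with CD11b, the product of Itgam, and a first comparison asked whether the Rab genes follow those markers. Each of 8050 NK-like cells was thinned to 2000 UMIs and classed by its Cd27 and Itgam UMIs, which gave 890 Cd27-only, 332 double-positive and 2470 Itgam-only cells; 4358 had neither. Few Rab genes were called between the ends of this series, and their number moved with the way the classes were drawn. Of the 36 members with enough UMIs to test, 2 were lower in Cd27-only cells and 0 were higher (edgeR, adjusted p at most 0.05), which is 5.56% against a background of 15.6% of 9985 genes called in either direction, 9.15% higher and 6.45% lower. At an unadjusted p under 0.05, edgeR gave 3 members higher and 8 lower, and DESeq2 called 0 after adjustment, with 0 higher and 2 lower before it. The median log2 fold change was -0.07 over the 36 members and -0.01 over all genes tested.

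Both members that passed were lower in the less mature class. Rab14 had 144, 130 and 150 CPM in Cd27-only cells of tags 1, 2 and 3, 145, 155 and 158 CPM in double-positive cells, and 175, 174 and 174 CPM in Itgam-only cells. Every Cd27-only value lay below every Itgam-only value. In each tag the double-positive value lay between the Cd27-only and Itgam-only values of that tag. Across tags it overlapped the Cd27-only range, with 145 CPM in tag 1 against 150 CPM in Cd27-only cells of tag 3. The difference was a log2 fold change of -0.27 ± 0.07 (SE; edgeR adjusted p = 0.0061). Rab2a had 382, 373 and 376 CPM in Cd27-only cells, 373, 446 and 461 CPM in double-positive cells, and 423, 439 and 449 CPM in Itgam-only cells. Its Cd27-only values again lay below all Itgam-only values, while the double-positive cells of tag 1 stood with the Cd27-only cells. The log2 fold change was -0.17 ± 0.05 (SE; edgeR adjusted p = 0.023).

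Neither result held under every setting. With classes drawn from unthinned counts 11 members were called, 4 higher and 7 lower, where 14.3% of all genes were higher and 11.5% lower. Without cells holding a marker UMI of another class, 0 members were called (edgeR, 1 higher and 1 lower at an unadjusted p under 0.05), where 7.51% of all genes were. Without clusters 4 and 10, 0 members were called as well (edgeR, 0 higher and 5 lower at an unadjusted p under 0.05), where 9.11% of all genes were. When a class required 2 or more UMIs of its gene, Rab14 stayed called (log2 -0.78, edgeR adjusted p = 0.0006) and Rab2a was lost. Without tag 2 no member was called (edgeR, 0 higher and 5 lower at an unadjusted p under 0.05), without tag 3 Rab2a was lost, and without tag 1 the count was 3. Of all genes 10.4% were called without tag 2 and 11.6% without tag 1. Just outside the threshold lay Rab1a (log2 fold change -0.27, edgeR adjusted p = 0.057), Rab29 (-0.63, 0.058), Rab5a (0.24, 0.06) and Rab31 (-0.49, 0.088). Cd27-only cells had more UMIs (median 5155.5 against 3712), a lower sum over the 10 NK markers (13902 against 22082 CPM) and a higher sum over the 12 dendritic markers (230 against 152 CPM, with Clec10a at 0 in both). Other marker sums were also higher in Cd27-only cells. They included progenitor (85.5 against 33.7 CPM, with Gata2 and Hoxa9 at 0 in Cd27-only cells), ILC1 (172 against 109 CPM) and B cell markers (120 against 81.7 CPM). Others were lower, among them platelet (5.12 against 13.9 CPM) and monocyte or macrophage markers (44.0 against 52.9 CPM). Of the Cd27-only cells, 84.6% were classed by a single Cd27 UMI. The part of the UMI depth, of the NK marker level and of the other marker sums in the result was not tested.

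**Figure D2:**
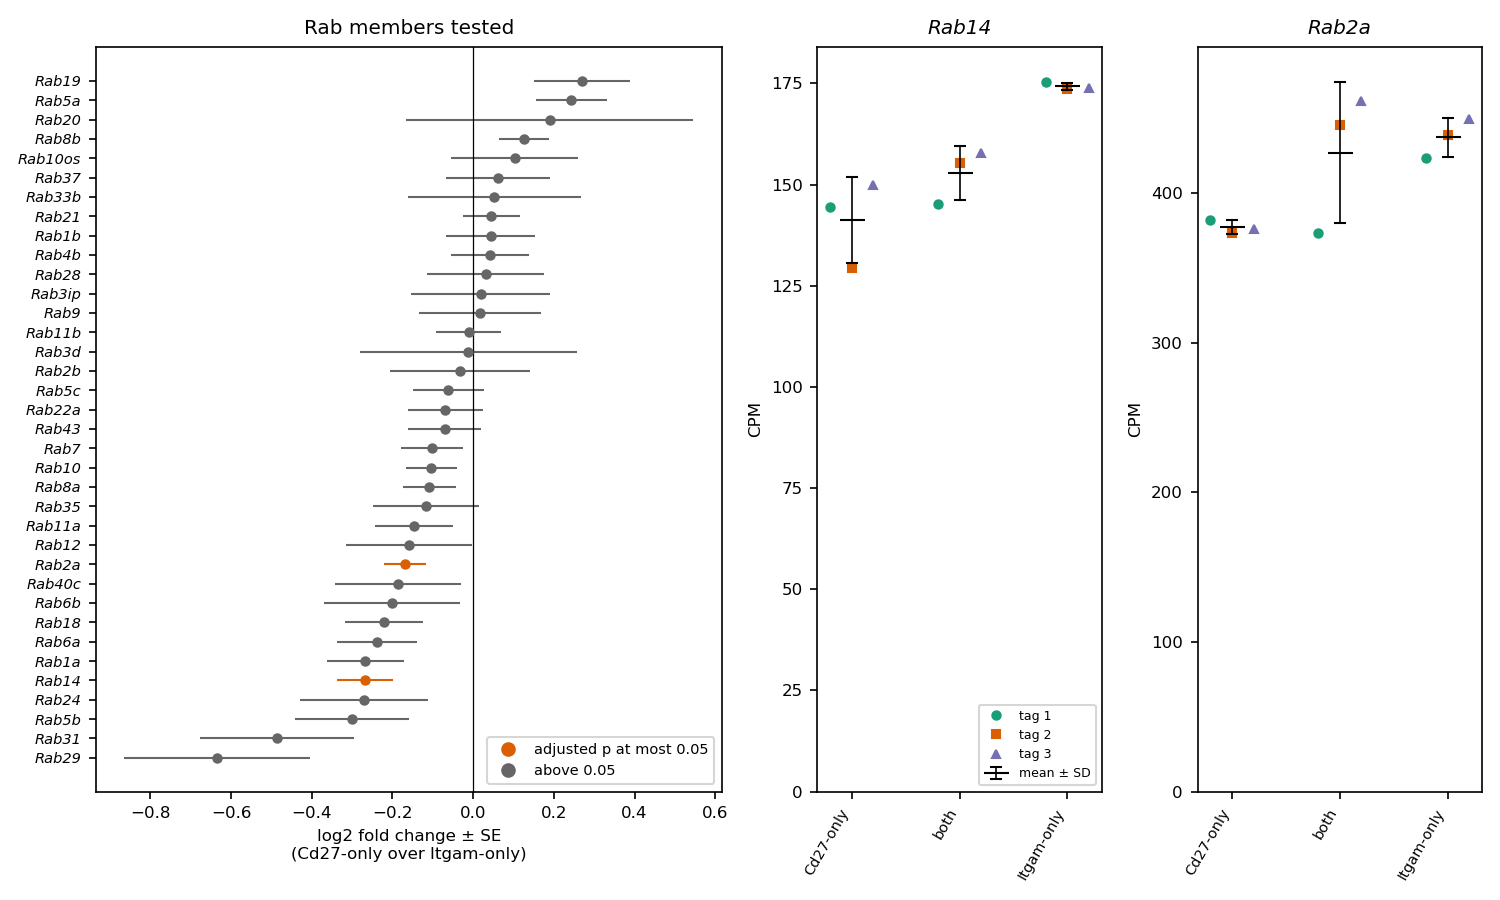
Rab members along the Cd27 to Itgam series of NK-like cells. The left panel gives the log2 fold change of Cd27-only over Itgam-only cells with its standard error for the 36 members tested, with the called members marked; the right panels give Rab14 and Rab2a in CPM for each tag (points) with the mean and SD in Cd27-only, double-positive and Itgam-only cells. Most members lie near 0, and Rab14 and Rab2a are the 2 called, both lower in Cd27-only cells.

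The remaining comparisons each set 1 class against the same NK-like cells, so they share that side and are not independent of each other. Levels are CPM of the summed UMIs, and fold changes come from edgeR with TMM scaling, which sets aside the most extreme genes.

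ILC1-like cells, named for tissue-dwelling relatives of NK cells, differed from NK-like cells in few Rab genes. The main one was Rab4a, a GTPase of fast recycling from early endosomes. The name of this cluster was a near tie. Its score was 0.652 over the ILC1 and 0.635 over the NK markers (mean detection relative to the highest cluster). Cluster 20 (83 cells) scored 0.829 over the ILC1 and 0.667 over the other innate lymphoid markers. It was left unnamed and entered no comparison. Of 42 members tested in ILC1-like cells, 4 were higher and 1 was lower (edgeR, adjusted p at most 0.05). That is 11.9%, against 21.7% of 11724 genes in either direction, 11.8% higher and 9.9% lower. Rab4a had 27.2, 17.4 and 25 CPM in ILC1-like cells of tags 1, 2 and 3, against 1.10, 1.11 and 0.965 CPM in NK-like cells. The lowest ILC1-like value stood far above the highest NK-like one, and the difference was 21.5-fold (log2 4.42 ± 0.31 SE, edgeR adjusted p = 7.7e-12). Progenitor markers summed to 154 CPM in ILC1-like cells (137 to 170 over tags, Hoxa9 at 0), against 59.5 CPM in NK-like cells, and erythroid markers to 394 CPM (348 to 496), against 227 CPM. Progenitor-like and erythroid-like barcodes themselves had Rab4a at 54.0 and 106 CPM, and the part of such RNA in the difference was not tested. With ILC1-like cells drawn from marker UMIs alone Rab4a stayed called. Within NK-like cells Rab4a was at 0.948 CPM in Cd27-only and 0.842 CPM in Itgam-only cells. Its close relative Rab4b, the major Rab4 gene in every class tested, had 76.6 CPM in ILC1-like and 67.8 CPM in NK-like cells and was not called.

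The other called members moved by much less. Rab8b had 289, 249 and 298 CPM in ILC1-like cells, against 216, 217 and 232 CPM in NK-like cells, with no overlap (log2 0.34 ± 0.06 SE, edgeR adjusted p = 6.9e-05). Rab37, a Rab of secretory granules, was higher by log2 0.33 (57.3 against 45.0 CPM, edgeR adjusted p = 0.045) and Rab21, of early endosomes and integrin traffic, by 0.21 (162 against 141 CPM, 0.035). Rab11a, of the slow recycling endosome, was lower at -0.27 (63.8 against 77.4 CPM, edgeR adjusted p = 0.047). Of the 11 alternatives, the call of Rab37 was lost under 8, that of Rab21 under 7 and that of Rab11a under 6, DESeq2 and the fit without a replicate block among them for all 3. With classes drawn from marker UMIs alone (58 ILC1-like cells), only Rab4a stayed called and Rab8b changed sign to a log2 fold change of -0.14. With library totals in place of TMM the split was 3 higher and 4 lower, where 11.3% of all genes were higher and 11% lower.

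T cell-like barcodes stood out by a pair of higher members. Of 42 tested, 2 were higher and 3 lower (edgeR), or 11.9%, against 18.1% of 11470 genes, 8.61% higher and 9.53% lower. Rab3ip, the exchange factor also called Rabin8 that activates Rab8, had 148, 110 and 86.8 CPM in T cell-like barcodes, against 22.7, 23.6 and 23.2 CPM in NK-like cells. All 3 tags were high, for a 5.61-fold difference (log2 2.49 ± 0.22 SE, edgeR adjusted p = 1e-27). Rab4a had 4.01, 6.86 and 22.1 CPM in T cell-like barcodes, against 1.10, 1.11 and 0.965 CPM in NK-like cells. The groups did not overlap, but most of its 15 UMIs came from tag 3, which held 89 of the 154 barcodes (14.8-fold, edgeR adjusted p = 7.8e-07), and without that tag the adjusted p was 0.61.

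Rab43, a Golgi Rab, was lower in T cell-like barcodes, with 16.0, 61.7 and 23.8 CPM against 95.8, 80.4 and 79.2 CPM in NK-like cells. The T cell-like value of tag 2, from 25 barcodes, came nearest to the NK-like range without reaching it (log2 -1.34 ± 0.27 SE, edgeR adjusted p = 8e-06). Rab14 was lower as well (95.7 against 157 CPM, log2 -0.49, edgeR adjusted p = 0.034), a call lost under 5 of 11 alternatives. Rab31, a Rab of the early endosome and trans-Golgi, rested on 3 UMIs in T cell-like barcodes against 830 in NK-like cells, a CPM ratio of 0.149 (95% counting interval 0.0306 to 0.436). With library totals in place of TMM the T cell split was 2 higher and 10 lower, where 6.13% of all genes were higher and 17.4% lower.

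B cell-like cells were distinguished by Rab30, a Golgi Rab that was almost missing from NK-like cells. Of 42 members tested, 8 were higher and 12 lower (edgeR), or 47.6%, against 42.7% of 11960 genes in either direction, 20.4% higher and 22.3% lower, so the total is near the background. Rab30 had 87.2, 104 and 168 CPM in B cell-like cells, against 0.392, 0.430 and 0.526 CPM in NK-like cells. Tag 3 was highest, and even the lowest B cell-like value stood far above all NK-like ones; the fitted difference was 287-fold (log2 8.16 ± 0.22 SE, edgeR adjusted p = 3.5e-31). Rab39, a GTPase of the Golgi and of phagosomes, had 13.0, 24.4 and 17.7 CPM in B cell-like cells, against 3.45, 2.09 and 3.16 CPM in NK-like cells, again without overlap (6.88-fold, edgeR adjusted p = 4.9e-09). Rab4b was modestly higher in all 3 tags, with 98.3, 91.0 and 96.5 CPM against 68.3, 66.6 and 68.8 CPM in NK-like cells (1.6-fold, edgeR adjusted p = 1.3e-06).

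The other members higher in B cell-like cells were Rab24 (38.4 against 28.0 CPM), an atypical Rab tied to autophagy, Rab21 (164 against 141 CPM), Rab3a (5.76 against 3.24 CPM), known for regulated exocytosis, Rab3ip (34.6 against 23.2 CPM) and the antisense transcript Rab26os (8.78 against 3.24 CPM). The last 2 were higher in 2 of 3 tags, and without tag 3, which held 391 of the 711 cells, both lost their call. Rab3a lost its call without tag 1 and without tag 2. On the lower side stood several exocytic members. Rab37 had 13.0, 16.3 and 11.3 CPM in B cell-like cells, against 43.5, 44.2 and 48.1 CPM in NK-like cells (log2 -1.66 ± 0.20 SE, edgeR adjusted p = 1.2e-09). Rab8b had 78.2, 73.2 and 78.8 CPM, against 216, 217 and 232 CPM in NK-like cells (log2 -1.35 ± 0.10 SE, edgeR adjusted p = 4.7e-15). In both genes all 3 B cell-like values lay well below all 3 NK-like values.

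Rab19, a Golgi-related Rab, had 20.1, 14.6 and 17.2 CPM in B cell-like cells, against 48.7, 56.7 and 55.0 CPM in NK-like cells. No tag overlapped (log2 -1.42 ± 0.18 SE, edgeR adjusted p = 4.2e-09). Rab3d, a granule Rab of secretory cells, fell to 1.92 CPM in B cell-like cells, against 9.95 CPM in NK-like cells (log2 -2.17), and Rab6b, of Golgi traffic, to 9.33 against 22.7 CPM (log2 -1.18). The rest fell by 0.29 to 0.71 on the log2 scale: Rab1b, Rab2a, Rab5c, Rab8a, Rab35, Rab11a and Rab5a, which serve the early secretory route, early endosomes and recycling. Rab35, Rab11a and Rab5a among them lost their call with DESeq2 and without any 1 of the 3 tags. Of the 12 secretion Rabs, 6 could be tested, with 1 higher and 4 lower. That is 16.7 and 66.7%, against 20.4 and 22.3% of all genes. With library totals in place of TMM the B cell split was 7 higher and 18 lower, where 15.8% of all genes were higher and 32.8% lower.

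Plasma cell-like barcodes, the antibody-secreting descendants of B cells, kept the high Rab30. Of 42 members, 1 was higher and 5 lower (edgeR), or 14.3%, against 17.5% of 11276 genes, 6.95% higher and 10.5% lower. Rab30 had 88.8, 18.5 and 43.6 CPM in plasma cell-like barcodes, against 0.392, 0.430 and 0.526 CPM in NK-like cells. The lowest value came from tag 2, which held only 3 barcodes, and still stood above NK-like cells (log2 7.74 ± 0.60 SE, edgeR adjusted p = 1.5e-35). Rab8a had 41.8, 18.5 and 27.2 CPM in plasma cell-like barcodes, against 174, 173 and 177 CPM in NK-like cells (log2 -1.54 ± 0.40 SE, edgeR adjusted p = 0.0012). Rab8b was lower by the same test (49.0 against 221 CPM, log2 -1.22, adjusted p = 0.0055).

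For 3 further members the plasma side held 1 or 2 UMIs. Rab37 had 1 UMI, a CPM ratio of 0.0362 to NK-like cells (95% counting interval 0.000917 to 0.202), Rab19 had 2, a ratio of 0.0608 (0.00736 to 0.22), and Rab35, of endocytic recycling, had 2, a ratio of 0.0805 (0.00974 to 0.291). Rab3b, a neuroendocrine exocytic Rab, did not pass the filter on low counts but showed 7 UMIs in plasma cell-like barcodes, with at least 1 in each tag, against 2 UMIs in NK-like cells. Its CPM ratio was 231 (95% counting interval 44 to 2280), which covers counting error only. Without tag 1 or without tag 3, Rab30 was the 1 member still called, where 7.97% and 6.92% of all genes were. With library totals in place of TMM the split was 1 higher and 25 lower, where 3.97% of all genes were higher and 41.1% lower. The part of the immunoglobulin share in this shift was not tested.

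**Figure D3:**
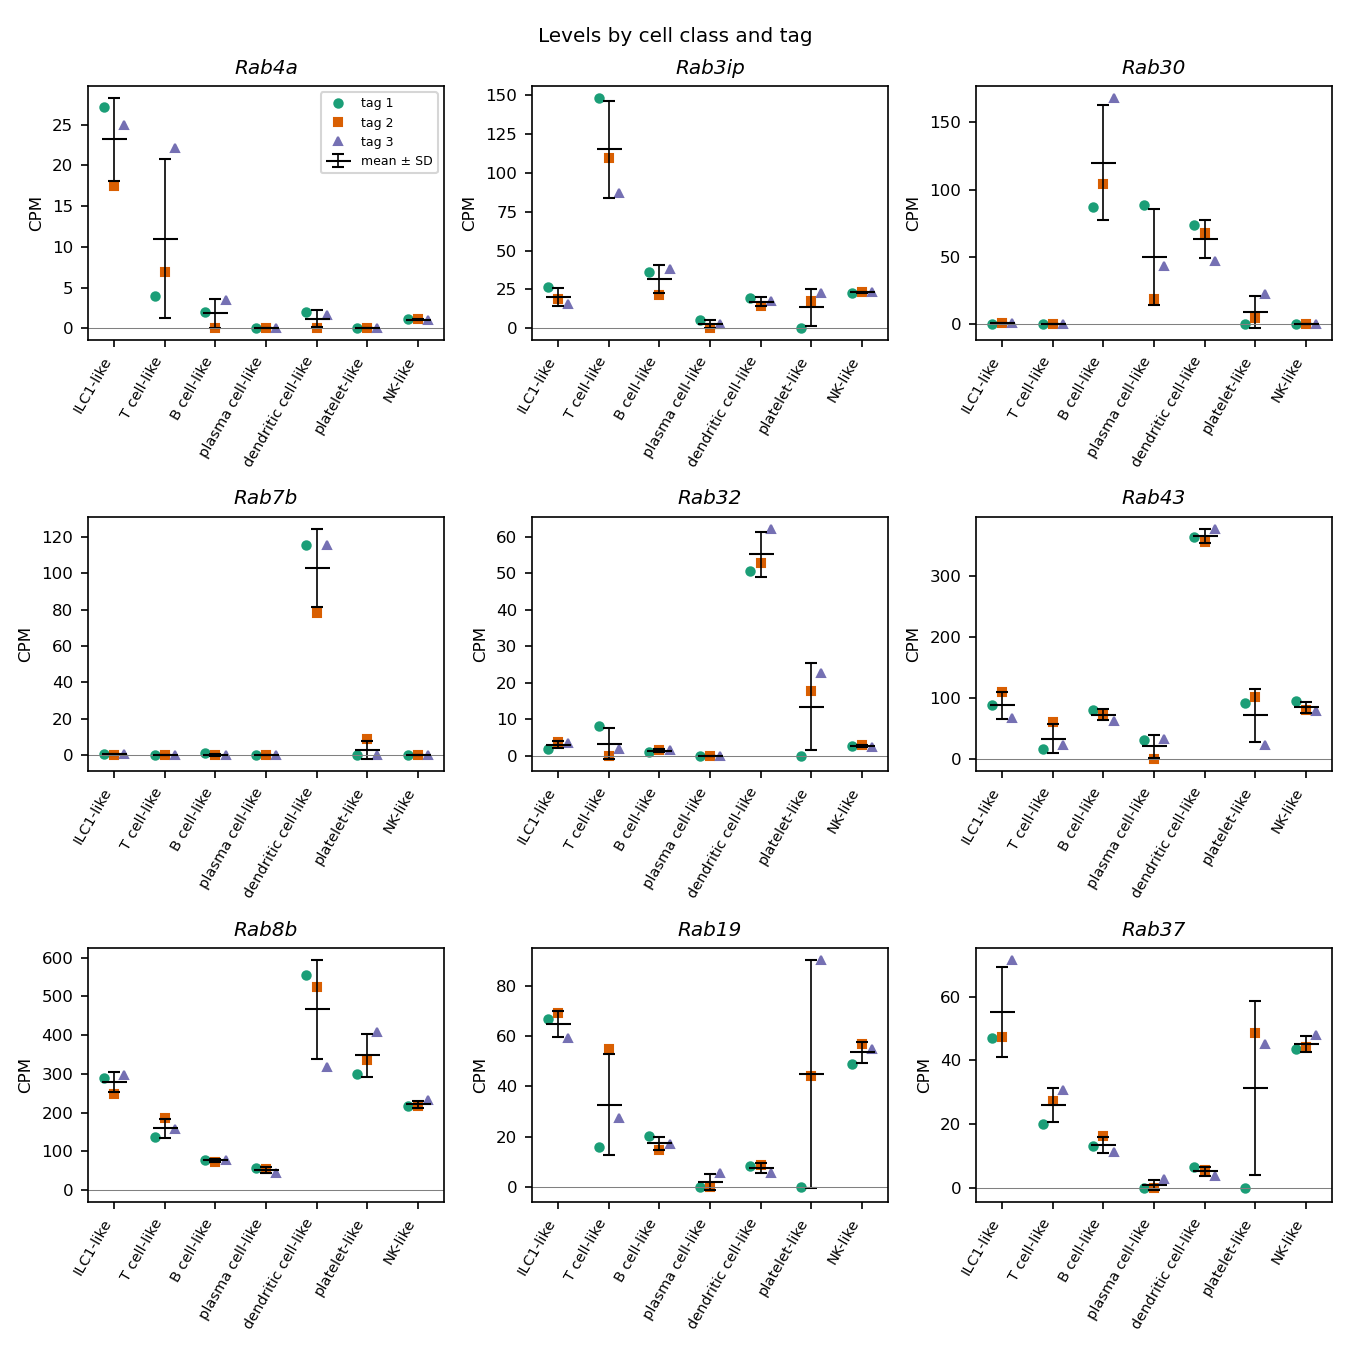
Levels of 9 Rab members by cell class and tag. Each point is the CPM of 1 tag on the scale of its panel, and the bar with its whisker gives the mean and SD over the 3 tags, with NK-like cells at the right. Rab4a is high in ILC1-like cells, Rab3ip in T cell-like barcodes, Rab30 in B cell-like cells, and Rab7b, Rab32, Rab43 and Rab8b in dendritic-like cells, while Rab19 and Rab37 are low there.

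Dendritic-like cells had the most Rab genes called of the 6 classes set against NK-like cells, and also the most genes called in all. Of 46 members tested, 20 were higher and 8 lower (edgeR), or 60.9%, against 56.6% of 12445 genes in either direction, so the total is near the background. The share higher was 43.5% of the members against 29.6% of all genes, and the share lower 17.4% against 27.1%. The median log2 fold change was 0.20 over the members and -0.04 over all genes tested. With library totals in place of TMM the split was 16 higher and 16 lower, against 22.5% of all genes higher and 43.2% lower, since that scaling moved the median of all genes to -0.36; the same change of scaling moved it to -0.32 in T cell-like (from -0.08), -0.23 in B cell-like (-0.04), -1.29 in plasma cell-like (-0.34) and -0.57 in platelet-like barcodes (-0.35).

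The late endosome and lysosome group had 3 members higher and 0 lower of the 4 tested. That is 75 and 0%, against 29.6 and 27.1% of all genes. Rab7b, a late endosomal GTPase that in human cells controls transport to the trans-Golgi and Toll-like receptor turnover, had 116, 78.3 and 115 CPM in dendritic-like cells, against 0.235, 0.0615 and 0.439 CPM in NK-like cells. It was close to absent from NK-like cells in every tag (9 UMIs in all), and the fitted difference was 524-fold (log2 9.03 ± 0.23 SE, edgeR adjusted p = 7.1e-15). Rab9, which returns receptors from late endosomes to the Golgi, had 83.1, 98.2 and 61.7 CPM in dendritic-like cells, against 24.8, 29.0 and 28.8 CPM in NK-like cells. The groups were well apart (3.65-fold, edgeR adjusted p = 8.5e-09). Rab7, the general late endosomal Rab, was called at log2 0.33 on the TMM scale (edgeR adjusted p = 0.015), yet its CPM was 114 in dendritic-like and 114 in NK-like cells and higher in 2 of 3 tags; its call was lost under 5 of 11 alternatives.

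Rab32 and Rab38, of lysosome-related organelles, were much higher in dendritic-like cells. Rab32, which with Rab38 supplies melanosomes and related organelles and in macrophages helps restrict bacteria, had 50.6, 52.7 and 62.2 CPM in dendritic-like cells, against 2.51, 2.89 and 2.46 CPM in NK-like cells. No value came near the other group (25.9-fold, log2 4.70 ± 0.19 SE, edgeR adjusted p = 2.6e-12). Monocyte or macrophage markers also summed higher in dendritic-like cells, at 1302 CPM (776 to 1889 over tags, none of the 7 at 0), against 51.4 CPM in NK-like cells (Fcgr1 at 0). Monocyte-like cells themselves had Rab32 at 55.6 CPM and Rab31 at 124 CPM, and the part of such RNA in the differences was not tested. The promoter of Rab32, shown above, is the 1 of the 4 with ETS cores. Rab38 had 16.2, 22.0 and 9.65 CPM in dendritic-like cells, against 0.235, 0.184 and 0.351 CPM in NK-like cells (75.3-fold, edgeR adjusted p = 4.6e-09). Rab29, of the Golgi and stressed lysosomes, was only slightly higher (17.7 against 14.7 CPM, log2 0.58, edgeR adjusted p = 0.02), and its call was lost under 6 of 11 alternatives. The summed level of the 3 was 88.8 ± 4.62 CPM in dendritic-like and 17.7 ± 1.05 CPM in NK-like cells (SD, n = 3).

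Of the Golgi group 3 were higher and 4 lower among 12 tested. That is 25 and 33.3%, against 29.6 and 27.1% of all genes, near the background. Rab43, which in mouse is known for cross-presentation by CD8α dendritic cells, had 365, 356 and 378 CPM in dendritic-like cells, against 95.8, 80.4 and 79.2 CPM in NK-like cells. The 3 dendritic values were tight and far above the NK-like range (5.4-fold, log2 2.43 ± 0.11 SE, edgeR adjusted p = 5.3e-12). Rab43 lies on chromosome 6 at 87788853 to 87812164 on the minus strand of GRCm38 and overlaps 3 other gene models on its strand in the GENCODE M21 annotation, so reads there could be shared. Same-strand overlaps exist for other members too, among them Rab4a, Rab4b, Rab7, Rab11a, Rab26, Rab30, Rab31 and Rab39. Rab30 had 74.0, 68.0 and 47.2 CPM in dendritic-like cells, against 0.392, 0.430 and 0.526 CPM in NK-like cells (171-fold, edgeR adjusted p = 1.5e-13). Rab39 had 18.2, 15.3 and 17.7 CPM in dendritic-like cells, against 3.45, 2.09 and 3.16 CPM in NK-like cells, as in B cell-like cells (7.45-fold, edgeR adjusted p = 1.6e-07).

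The secretion group had 4 higher and 2 lower of 8 tested, or 50 and 25%. Early endosome and uptake had 2 higher and 0 lower of 6, or 33.3 and 0%. Of all genes 29.6% were higher and 27.1% lower, so the secretion share lower and the early endosome share higher are near the background. Rab8b had 555, 525 and 319 CPM in dendritic-like cells, against 216, 217 and 232 CPM in NK-like cells, tag 3 being the lowest but still above them (2.57-fold, edgeR adjusted p = 3.2e-07). Rab21 had 254, 293 and 195 CPM in dendritic-like cells, against 140, 136 and 150 CPM in NK-like cells (2.16-fold, edgeR adjusted p = 9.7e-07). Rab31 was higher at 39.5 against 20.5 CPM (log2 1.25), Rab11a at 102 against 77.4 CPM (0.71), Rab10 at 276 against 216 CPM (0.67) and Rab12, a Rab of recycling endosomes and lysosomes, at 41.6 against 29.0 CPM (0.83). Rab23, known from Hedgehog signalling, had 5.22 against 2.10 CPM (1.62). Rab20, of phagosomes, was called with 8.58 against 5.34 CPM (0.99), though higher in 2 of 3 tags, and its call was lost under 5 of 11 alternatives. Rab26, a Rab of regulated secretion, was called on 16 UMIs in dendritic-like cells (2.98 against 0.866 CPM), and without tag 2 its call was lost. Rab26 overlaps Traf7 on its own strand, so its reads could be shared too.

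Rab13, of epithelial junctions, and the exchange factor Rab3il1 each had 16 UMIs in dendritic-like cells against 3 in NK-like cells, a CPM ratio of 40.2 (95% counting interval 11.5 to 215). Platelet markers summed to 205 CPM in dendritic-like cells (20.8 to 344 over tags), against 10.9 CPM in NK-like cells, and their part in the Rab13 value was not tested. For Rab14, TMM and CPM parted: it was called higher at log2 0.29 (edgeR adjusted p = 0.023), while its CPM was 154 in dendritic-like and 157 in NK-like cells and higher in 0 of 3 tags, and with library totals the log2 fold change was -0.03.

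On the lower side the granule and Golgi members Rab37 and Rab19 stood apart. Rab37 had 6.49, 5.63 and 3.75 CPM in dendritic-like cells, against 43.5, 44.2 and 48.1 CPM in NK-like cells, low in every tag (log2 -2.79 ± 0.22 SE, edgeR adjusted p = 1.3e-08). Rab19 had 8.44, 8.69 and 5.36 CPM in dendritic-like cells, against 48.7, 56.7 and 55.0 CPM in NK-like cells (log2 -2.52 ± 0.20 SE, edgeR adjusted p = 1.3e-08). Rab37 lies at chromosome 11, 115091431 to 115162236 (plus strand), opposite to Cd300lf; its own call was the same in B cell-like cells. Rab6b fell by 1.67 on the log2 scale, and Rab2b, Rab40c, Rab35, Rab2a and Rab8a by 0.29 to 0.72. Of the 11 alternatives, the calls of Rab40c and Rab8a were lost under 5, that of Rab35 under 4 and those of Rab2b and Rab2a under 3. Without tag 1 the counts were 15 higher and 3 lower, and with classes drawn from marker UMIs alone (92 dendritic-like cells) 11 higher and 4 lower. Of all genes 26.1% were higher and 22.5% lower without tag 1, and 18.3% and 18.5% with marker UMIs alone.

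The dendritic-like class joined 3 clusters that did not share 1 Rab profile, given here as a description without a test. Cluster 18 (108 cells) was led by Il12b and Fmnl2 against all other clusters. Ccr7 and Fscn1, known from mature migratory dendritic cells, were also among its leading genes. It had Rab8b at 1739, 1379 and 1198 CPM in tags 1, 2 and 3. Cluster 11 (331 cells) was led by Fabp5 and Tbc1d4, and against clusters of other types Fscn1 was among its leading genes too. Its score was 0.663 over the conventional and 0.517 over the plasmacytoid dendritic markers (mean detection relative to the highest cluster). Cluster 11 had Rab8b at 265 CPM and cluster 17 (117 cells), with Cadm1 and Cxcl9 among its leading genes, at 246 CPM. Both were close to the 221 CPM of NK-like cells. Rab21 and Rab9 followed the same order, with 514 and 166 CPM in cluster 18, 259 and 88.1 CPM in cluster 11, and 90.2 and 25.9 CPM in cluster 17. Rab22a, of early endosomes, had 158 CPM in cluster 18, 53.5 in cluster 11 and 31.0 CPM in cluster 17.

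Rab7b ran the other way. It had 296, 237 and 246 CPM in cluster 17, 66.7, 9.73 and 32.5 CPM in cluster 11, and no UMI in cluster 18, which allows up to 3.22 CPM at 3 UMIs. Rab43 was likewise highest in cluster 17 at 609 CPM, with 234 CPM in cluster 11 and 282 CPM in cluster 18. Rab32 had 93.0 CPM in cluster 17, 35.4 in cluster 11 and 40.8 CPM in cluster 18, and Rab39 had 32.7, 10.2 and 6.44 CPM in the same clusters. Rab30 was present in all 3, with 44.5 CPM in cluster 17, 56.5 in cluster 11 and 114 CPM in cluster 18.

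**Figure D4:**
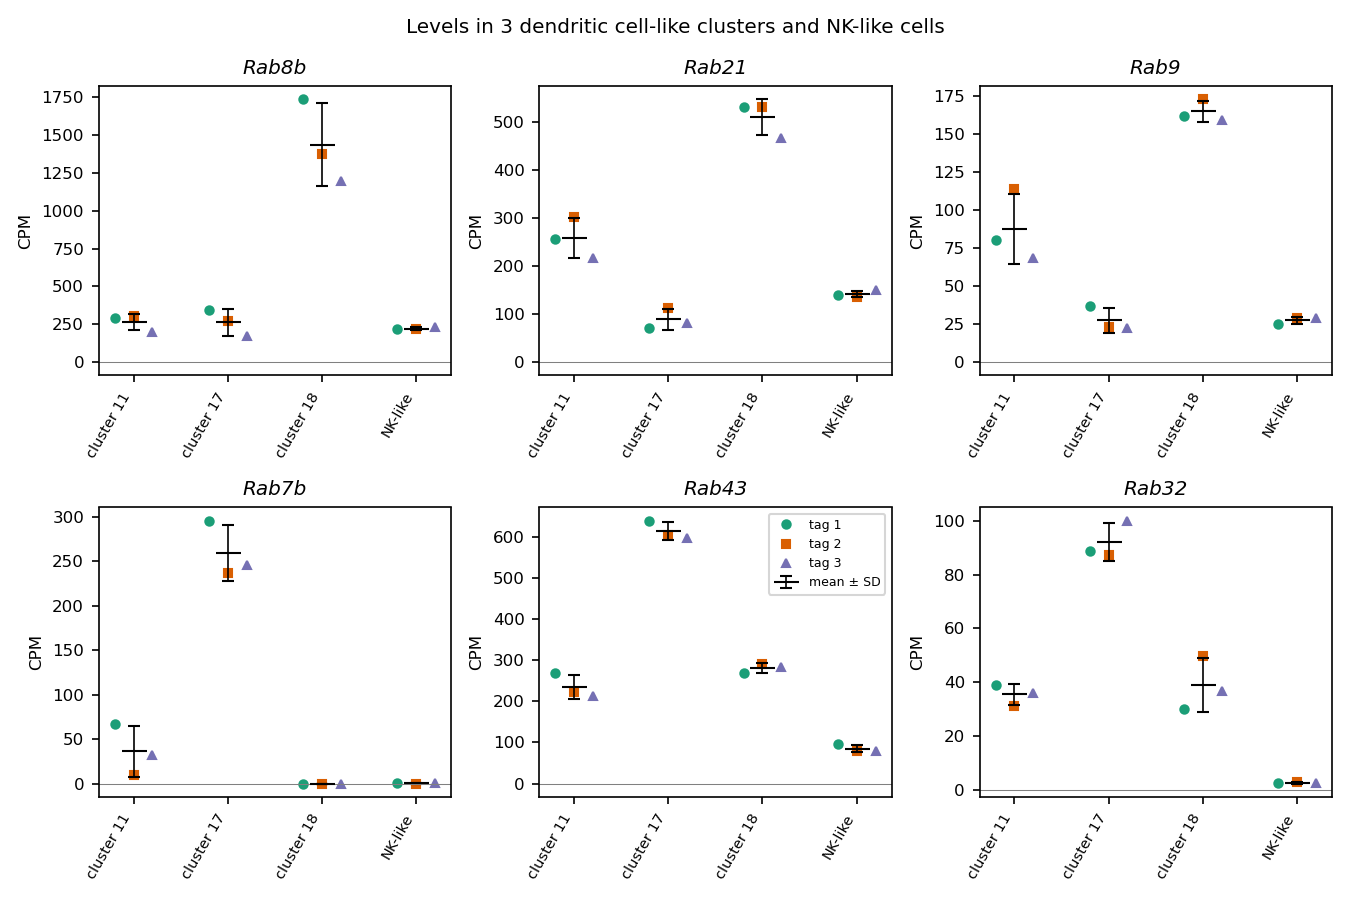
Levels of 6 Rab members in the 3 dendritic-like clusters and in NK-like cells. Each point is the CPM of 1 tag and the line the mean over tags, with clusters 11, 17 and 18 before NK-like cells. Rab8b, Rab21 and Rab9 are highest in cluster 18 and Rab7b, Rab43 and Rab32 in cluster 17, with Rab7b at 0 in cluster 18.

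Platelet-like barcodes had few UMIs (median 2394), and 61 of the 87 came from tag 2. Of 40 members, 2 were higher and 0 lower (edgeR), or 5%, against 5.53% of 11265 genes in either direction, 5.02% higher and 0.515% lower. At an unadjusted p under 0.05, edgeR gave 5 members higher and 0 lower and DESeq2 gave 6 and 0, of which DESeq2 called 2. Rab22a had 138, 261 and 204 CPM in platelet-like barcodes, against 69.6, 74.9 and 78.7 CPM in NK-like cells, higher in every tag (3.2-fold, edgeR adjusted p = 0.00015). Rab11a had 46.1, 252 and 271 CPM, against 74.5, 77.1 and 81.0 CPM in NK-like cells, so that tag 1, with 12 barcodes, went the other way (2.9-fold, edgeR adjusted p = 0.00096). Without tag 2 both calls were lost, and edgeR gave 1 member higher and 0 lower at an unadjusted p under 0.05. The Rab11a call was lost without tag 3 as well.

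Rab13 had 20 UMIs in platelet-like barcodes against 3 in NK-like cells and did not pass the filter on low counts. Its CPM was 0, 57.5 and 158 in tags 1, 2 and 3, and the ratio to NK-like cells was 859 (95% counting interval 255 to 4520). Rab8b had 341 CPM against 221 CPM in NK-like cells and was not called. The platelet-like barcodes also carried erythroid markers at 1451 CPM in sum (Klf1 and Ermap at 0), against 227 CPM in NK-like cells. Monocyte or macrophage markers summed to 883 CPM (438 to 964 over tags, Fcgr1 at 0), against 51.4 CPM in NK-like cells, and the 10 NK markers to 10078 CPM, against 18028 CPM. The part of each in these values was not tested.

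Within pairs of near relatives, the share of one gene in the pair's UMIs can be compared between classes without any scaling. A higher share need not mean a fall of the other gene. By summed CPM, Rab4b in ILC1-like and Rab7 in dendritic-like cells were not lower than in NK-like cells. Rab4a made up 28.7, 18.6 and 23.3% of Rab4 UMIs in ILC1-like cells of tags 1, 2 and 3, against 1.58, 1.63 and 1.38% in NK-like cells. Rab7b made up 50.4, 41.6 and 49.1% of Rab7 and Rab7b UMIs in dendritic-like cells, against 0.215, 0.0538 and 0.371% in NK-like cells. Rab8b made up 80.2% of the Rab8 UMIs in dendritic-like and 40.7% in B cell-like cells, against 55.9% in NK-like cells. Rab11a made up 40, 67.1 and 80.0% of the Rab11 UMIs in platelet-like barcodes of tags 1, 2 and 3, against 41.3, 43.4 and 43.3% in NK-like cells, so tag 1 lay just below its NK-like share. In dendritic-like cells the share was 55.7, 54.8 and 57.4%. Rab6b made up 10.8% of the Rab6 UMIs in dendritic-like cells, against 25.1% in NK-like cells. These shares repeat the fold changes above on another scale and were not tested apart from them. Near relatives share sequence, and how reads that fit both were assigned is not given in the sources used here.

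The proteins that load, empty and read Rabs were described from a list of 115 genes. Apart from genes that are also members, their calls come from the main edgeR fit only and were not rerun under the alternatives. In dendritic-like cells 37 of the 99 tested were higher and 26 lower (edgeR). The GTPase-activating proteins gave 16 higher and 8 lower of 34 (47.1 and 23.5%). Of the regulators 37.4% were higher and 26.3% lower, against 29.6 and 27.1% of all genes tested, so the lower share is near the background. Tbc1d4, best known for holding back glucose transporter vesicles, had 925 CPM in dendritic-like cells against 3.64 CPM in NK-like cells (log2 8.32 ± 0.13 SE, edgeR adjusted p = 5.6e-17). Tbc1d9 had 340 against 1.01 CPM and Tbc1d8 436 against 2.18 CPM. Of the activators, Rin2, an exchange factor of the Rab5 group, had 48.9 against 0.198 CPM and Sbf2, which acts on Rab21 in the fly, 113 against 3.39 CPM, and the effector Mical3 had 114 against 0.841 CPM.

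In B cell-like cells 29 of 97 regulators were higher and 26 lower (edgeR), and in plasma cell-like barcodes 4 of 92 were higher and 16 lower. The regulator shares were 29.9% higher and 26.8% lower in B cell-like cells, against 20.4 and 22.3% of all genes, and 4.35% and 17.4% in plasma cell-like barcodes, against 6.95 and 10.5% of all genes. Dennd5b, an activator of the DENN family, had 134 CPM in B cell-like and 211 CPM in plasma cell-like barcodes, against 0.717 CPM in NK-like cells. Evi5, a GTPase-activating protein for Rab11, had 52.2, 0 and 177 CPM in plasma cell-like barcodes of tags 1, 2 and 3, against 3.61, 3.81 and 4.30 CPM in NK-like cells; tag 2, with 3 barcodes, did not show the rise. Sytl3 and Sytl2, synaptotagmin-like effectors that bind Rab27 and dock granules, were lower in both B cell-like and dendritic-like cells. Sytl3 had 46.4 CPM in B cell-like and 25.9 CPM in dendritic-like cells, against 421 CPM in NK-like cells, and Sytl2 had 14.0 and 8.77 CPM, against 106 CPM.

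Between the NK classes, edgeR called 2 of 88 regulators higher and 9 of them lower in the Cd27-only class, which is 2.27 and 10.2%, against 9.15 and 6.45% of all genes. Sytl2 had 90.6 CPM in Cd27-only and 129 CPM in Itgam-only cells (log2 -0.47 ± 0.08 SE, edgeR adjusted p = 7.9e-05), and Sytl3 was lower as well (log2 -0.22, edgeR adjusted p = 0.0022). Rinl, an exchange factor of the Rab5 group, was higher (290 against 248 CPM, log2 0.28, edgeR adjusted p = 0.00076). In ILC1-like cells 12 of 93 regulators were higher and 6 lower (12.9 and 6.45%, against 11.8 and 9.9% of all genes), led upward by the recycling effector Rab11fip1 (log2 1.98, edgeR adjusted p = 5.3e-09) and by Sytl1 (log2 1.96, 8.9e-05; 9.52 against 2.40 CPM). T cell-like barcodes had 7 of 91 higher and 14 lower (7.69 and 15.4%, against 8.61 and 9.53% of all genes), with Tbc1d4 at 34.6 against 3.64 CPM. In platelet-like barcodes 5 of 93 were higher and 1 lower (5.38 and 1.08%, against 5.02 and 0.515% of all genes), and Sytl4, the granule effector granuphilin, had 48 UMIs (153 CPM) against 5 UMIs (0.124 CPM) in NK-like cells.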

How the data were processed

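The library was a 10x Genomics 3′ v3.1 library of spleen cells. The authors deposited raw UMI counts per gene and barcode, with the tag counts in the same matrix; per the file headers the counts came from Cell Ranger 7.0.0. Build mm10 and the tools Cell Ranger and Seurat are credited to the submitters' processing notes. Whether intronic reads were counted, and how reads were filtered, is not given in the sources used here.

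Of 16384 barcodes, 15742 had 500 to 6000 genes and at most 10% mitochondrial UMIs. Otsu thresholds on the tag counts left 11696 with 1 tag, 3567 with several and 479 with none; the several-tag barcodes were dropped as doublets, and no other doublet caller was run. The labels do not map cells to mice, so tags were the replicates. Cells were clustered with scanpy 1.11.5 (2000 variable genes without Rab, regulator, mitochondrial and ribosomal genes, 30 components, 15 neighbours, Leiden resolution 1.0) and clusters were named from marker lists; 1 mixed cluster was divided again, which gave the plasma cell-like and an erythroid-like cluster. UMIs were summed per tag and class. Total UMIs per tag were 18485480 to 23091461.

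Each comparison used edgeR 4.0.16 (quasi-likelihood test, TMM, filterByExpr, tag as block, Benjamini-Hochberg over all genes tested at 0.05). Folds come from that fit, and intervals are exact Poisson or binomial at 95%. The fit gives no standard error. Each SE printed is an approximation, the absolute log2 fold change divided by the square root of the F statistic of the test. The block is there because the classes of 1 tag come from the same tagged cells. The check on deviations from the class means gave gene-wise correlations of 0.085 to 0.25 between Cd27-only and Itgam-only cells of the same tag, and -0.0026 to 0.24 between each class and NK-like cells. Named members are all called in Cd27-only against Itgam-only, and in each other comparison those called with at least 5 CPM in the higher class, plus the most abundant in NK-like cells and each member in its highest class; Rab26, Rab13, Rab3b, Rab3il1 and the members just outside the threshold were added after their values were seen. Alternatives were DESeq2 1.42.0, no filter, no block, all classes in 1 fit, each tag left out, other class definitions and other scalings. The edgeR step was checked on simulated counts. Members, role groups, regulators and markers were chosen with earlier results of these data known.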

Additional observations from a re-analysis of the deposited data

How the results depend on the processing

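Of 740 recomputed log2 fold changes for the 68 called member results, 604 kept their direction and call, 132 kept the direction but lost the call, and 4 changed sign; 33 of the 68 held under every alternative in which they could be tested (9 of the 11 for Rab38 and 6 for Rab13 in dendritic-like cells, 11 for the rest), among them Rab4a in ILC1-like, Rab3ip and Rab43 in T cell-like, Rab30 in B cell-like, plasma cell-like and dendritic-like, and Rab7b, Rab32, Rab38, Rab43 and Rab9 in dendritic-like cells. The 4 were Rab8b in ILC1-like (-0.14), Rab14 (-0.11) and Rab20 (-0.049) in dendritic-like cells with classes from marker UMIs alone, and Rab14 in dendritic-like cells with library totals (-0.031). The cause was not tested.

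For Cd27-only against Itgam-only cells 2 members were called. The count was 0 with DESeq2 (0 higher and 2 lower at an unadjusted p under 0.05), 4 with no low-count filter, 1 with no replicate block, 1 with at least 2 gate UMIs, 11 with unthinned counts (4 higher, 7 lower), 0 without cells holding a marker UMI of another class (edgeR, 1 and 1 unadjusted), 5 with library totals and 0 without clusters 4 and 10 (edgeR, 0 and 5 unadjusted), whose leading genes against all cells include markers of other types. In the order of these settings 5.42, 8.51, 9.41, 8.19, 25.8, 7.51, 16.7 and 9.11% of all genes were called. For ILC1-like cells the 5 became 2 with DESeq2, 2 with no replicate block, 1 with all 7 classes in 1 fit, 1 with marker UMIs alone and 11 without clusters 4 and 10. Of all genes 11.9, 16.6, 13.4, 9.98 and 25.4% were called there, in the same order. For T cell-like barcodes the 5 became 3 with DESeq2 (10.5% of all genes) and 12 with library totals (23.6%). For plasma cell-like barcodes the 6 became 1 with marker UMIs alone (10 barcodes, 0 in tag 2, 4.53% of all genes called) and 26 with library totals (45.1%). For dendritic-like cells the 28 became 15 with marker UMIs alone (36.8% of all genes). For platelet-like barcodes the 2 became 5 with no replicate block (8.43% of all genes) and 6 with all 7 classes in 1 fit (11.3%). They became 0 with marker UMIs alone (4.55%, edgeR 2 higher and 0 lower unadjusted). The replicate block changed no other count of calls by over 1.5 times.

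Leaving out each tag in turn gave 0 to 3 calls for Cd27-only, 5 for ILC1-like in every run, 3 to 6 for T cell-like, 15 to 18 for B cell-like, 1 to 6 for plasma cell-like, 18 to 27 for dendritic-like and 0 to 4 for platelet-like barcodes. Of all genes 10.4 to 11.6% were called for Cd27-only, 16.4 to 19.9% for ILC1-like, 8.86 to 16.3% for T cell-like and 31 to 39.2% for B cell-like. The shares were 6.92 to 18.1% for plasma cell-like, 47.7 to 52.2% for dendritic-like and 2.54 to 6.91% for platelet-like barcodes. The planned setting that adds unnamed clusters scored closest to NK gave no value, because there was no such cluster. Clusters 4 and 10, library totals and the cluster of lowest UMIs were chosen after seeing the data. The depth limits the plasma cell-like (612724 UMIs) and platelet-like (313650 UMIs) classes most.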

Other observations

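Several Rab members were highest in cell classes that entered no comparison, given here as levels without a test. Rab44, a large Rab of granulocytes and mast cells, had 74.5 CPM in neutrophil-like and 22.7 CPM in progenitor-like barcodes, against 3 UMIs in all NK-like cells. Rab37 followed it, with 104 CPM in neutrophil-like and 53.5 CPM in progenitor-like barcodes, against 45.0 CPM in NK-like cells. Rab4a, the member that set ILC1-like cells apart, reached 106 CPM in erythroid-like and 54.0 CPM in progenitor-like barcodes, against 1.06 CPM in NK-like cells. Rab38 had 97.9 CPM in progenitor-like and 39.9 CPM in erythroid-like barcodes, against 0.247 CPM in NK-like cells.

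Monocyte or macrophage-like cells had 124 CPM of Rab31 and 55.6 CPM of Rab32, against 20.5 and 2.65 CPM in NK-like cells. Mural or fibroblast-like cells had 51.2 CPM of Rab34, a Golgi Rab also known from cilia, 52.8 CPM of Rab40b, 28.4 CPM of Rab13 and 108 CPM of Rab6b; NK-like cells had 4 UMIs of Rab34, 2 of Rab40b and 3 of Rab13, and 22.7 CPM of Rab6b. The neutrophil-like class held 19 barcodes, and 101 of the 145 mural or fibroblast-like barcodes came from tag 2.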
